A study of Homo sapiens with 7 samples.

Results

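The miR-181 family was followed here as 5 mature microRNAs: miR-181a-5p, miR-181b-5p, miR-181c-5p, miR-181d-5p and miR-181a-3p. They were chosen by name (hsa-miR-181a-5p, hsa-miR-181b-5p, hsa-miR-181c-5p, hsa-miR-181d-5p and hsa-miR-181a-3p, hsa standing for human) from a table of 480 mature microRNAs, and all 5 had a row. The data came from A375, a human melanoma cell line, in which BRAF-X1 mRNA, one of the transcript isoforms of the kinase gene BRAF, was pulled down with probes to its 3′ UTR and the microRNAs held on it were sequenced (miR-CATCHv2.0). Before capture the cells were grown for 24 h and crosslinked with 1% formaldehyde for 10 min. The groups were 3 captures with the ODD probe set, 3 captures with the EVEN probe set (both sets against BRAF-X1, together called X1 probes) and 1 capture with scrambled probes, all from the same line and protocol. With 1 scrambled capture, no spread of the control could be measured.

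MicroRNAs are cut from both arms of a hairpin, named 5p and 3p, and the strand loaded on an Argonaute protein guides it to mRNAs that pair with its seed, bases 2 to 8. The miR-181 genes lie in paired clusters, and the 5p strand is usually the more abundant one. The family is best known from lymphocytes, where miR-181a sets the sensitivity of the T cell receptor in mouse, and its 5p members share targets because they share a seed.

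The mature sequences are shown because they define which reads can be told apart within the family. They were taken from RefSeq (GRCh38.p14), where all 5 members matched, and the capitals mark the seed.
miR-181a-5p: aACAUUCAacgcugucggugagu
miR-181b-5p: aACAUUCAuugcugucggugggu
miR-181c-5p: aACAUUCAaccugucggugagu
miR-181d-5p: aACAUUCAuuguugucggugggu
miR-181a-3p: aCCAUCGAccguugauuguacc

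The 4 members of the 5p arm had 1 seed, and miR-181a-3p had another. RefSeq held 5 mature microRNAs with the 5p seed, of which the 4 members were in the table. The other one, miR-4262, had no row and was not analysed here. With positions counted from 1 at the 5′ end, miR-181b-5p differed from miR-181a-5p by A9U, C10U and A21G, all outside the seed. miR-181d-5p differed from miR-181b-5p by C12U alone, and miR-181c-5p from miR-181a-5p by G11del alone. How the authors assigned reads with a mismatch is not given in the sources used here, so the split between these pairs of near-identical microRNAs is uncertain.

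RefSeq placed miR-181a-5p at chr1:198859108-198859130 on the minus strand, in MIR181A1, and with the same sequence at chr9:124692480-124692502 on the plus strand, in MIR181A2. miR-181b-5p lay beside it at chr1:198858925-198858947 on the minus strand, in MIR181B1, and at chr9:124693725-124693747 on the plus strand, in MIR181B2. miR-181c-5p (MIR181C, chr19:13874725-13874746) and miR-181d-5p (MIR181D, chr19:13874910-13874932) lay on the plus strand of chromosome 19. miR-181a-3p came from MIR181A1 alone (chr1:198859069-198859090, minus strand). The 3p arm of MIR181A2 is a separate microRNA, miR-181a-2-3p, that differs from it by U5C, C6U and U16C.

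Values are RPM, reads per 1000000 reads of the table. Depth over all rows was 4049 to 35508 reads with ODD probes, 4767 to 14492 reads with EVEN probes and 4647 reads with scrambled probes, so that 1 scrambled read was worth 215 RPM. Some mature names have several hairpin rows, so the total over all rows may count a read more than once. With 1 row per name the depth was 3046 to 25679, 3524 to 10610 and 3479 reads. RPM is a share of a library, so how much RNA a capture yielded in all cannot be read from it, and fewer cells and less RNA per cell could not be told apart. Among cell type markers, 2 of 7 for pigment and melanoma cells were listed (miR-204-5p and miR-509-3p, but not miR-211-5p). Their summed level was 1380 to 2495 RPM with ODD probes, 2277 to 2937 RPM with EVEN probes and 1076 RPM with scrambled probes. Of the 7 blood cell markers 5 were listed, with a summed level of 247 to 507 RPM with ODD probes, 0 to 629 RPM with EVEN probes and 215 RPM with scrambled probes. Of the markers of epithelium, neurons and muscle, 3 of 6, 3 of 3 and 2 of 4 were listed, with summed levels of at most 988 RPM with ODD probes, 629 RPM with EVEN probes and 1291 RPM with scrambled probes. Their part in the results was not tested.

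miR-181a-5p and miR-181b-5p made up nearly all of the family in every library, and neither differed detectably between X1 and scrambled probes. miR-181a-5p was the microRNA with rank 4 by mean level over the 7 libraries, and miR-181b-5p had rank 12. The ranks of the other members ran from 114 to 127, at a few reads per library. Summed over the 5 members, the family held 5.18% ± 1.12 of the RPM total with X1 probes (SD, n = 6) and 4.61% with scrambled probes. Of the reads with 1 row per mature name these shares were 7.10% on average and 6.15%. Within the family's sum miR-181a-5p took 63.9% to 68.9% with X1 probes and 70.1% with scrambled probes, and miR-181b-5p 28.5% to 33.4% and 29.4%.

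miR-181a-5p, the main strand of both mir-181a hairpins, had 30216, 41991 and 28155 RPM in ODD replicates 1 to 3, 27766, 46301 and 32935 RPM in EVEN replicates 1 to 3, and 32279 RPM with scrambled probes. Replicate 2 of both probe sets was high, and the scrambled library lay within the range of either set. These values rested on 114 to 1491 reads with X1 probes and on 150 reads with scrambled probes. miR-181b-5p, its neighbour in the same clusters, had 13583, 19010 and 13831 RPM in ODD replicates 1 to 3, 14529, 22909 and 13635 RPM in EVEN replicates 1 to 3, and 13557 RPM with scrambled probes. Again replicate 2 of both sets was high. The scrambled value was the lowest of the 7, but it lay under ODD replicate 1 by less than the 28.2 RPM that 1 read was worth in the deepest library.

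**Figure D1:**
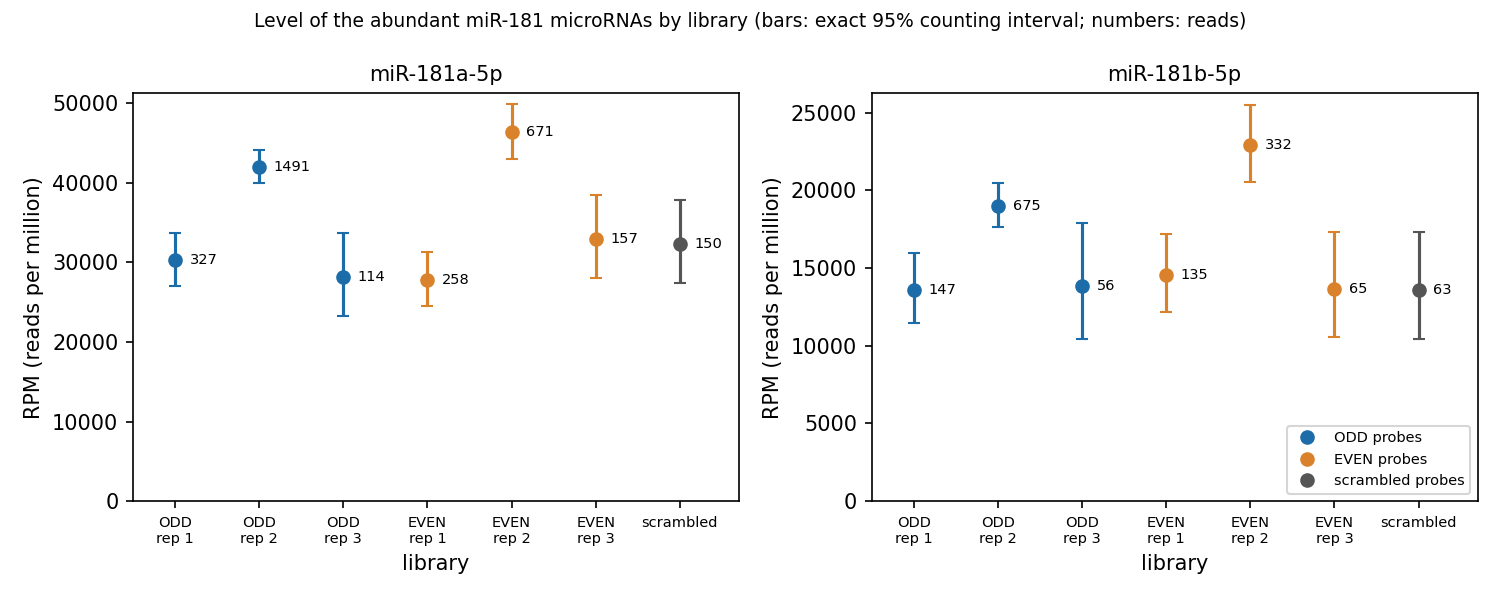
Level of miR-181a-5p (left) and miR-181b-5p (right) in RPM for each library, with exact 95% counting intervals as bars and the reads beside each point. ODD and EVEN replicate 2 stand above the other libraries in both panels. The scrambled library (150 and 63 reads) sits among the rest at left and is the lowest at right, hardly below ODD replicate 1.

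Against scrambled probes, 0 of the 5 members passed (limma on log2(RPM + 10), Benjamini-Hochberg adjusted p below 0.05 over the 242 tested microRNAs), and 2 had an unadjusted p below 0.05, both with 0 scrambled reads. At that unadjusted level 17 of the 242 were higher and 4 lower. The voom method on reads recovered from the RPM also called 0 members. Over all tested microRNAs 0.826% were called, miR-17-5p and miR-184, both higher and named here after their values were seen. Their log2 differences were 6.16 and 6.33, and miR-17-5p had 50 reads over the 7 libraries. Both calls were lost with the highest pseudocount and with the replicate block, so they are not firm. All 5 members passed the filter of 10 RPM in at least 3 of the 7 libraries. Since 1 read was worth 28.2 to 247 RPM, this asks for reads in at least 3 libraries. A microRNA read only with X1 probes could pass, as miR-181c-5p and miR-181a-3p did, but not one read only with scrambled probes. Counts of higher and lower microRNAs against scrambled probes, here and below, are therefore not on even terms. The median log2 difference was 0.57 over the 5 members and 0.096 over all 242. The members' median is the value of miR-181d-5p, which had 1 scrambled read, and nothing is read from it about the family.

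For miR-181a-5p the level averaged 34561 ± 7769 RPM with X1 probes (SD, n = 6), against 32279 RPM in the scrambled capture. On the log2 scale the difference came to 0.070 ± 0.30 (limma estimate and SE, 95% interval -0.55 to 0.69) at an adjusted p = 0.905, with 3 of 6 X1-probe libraries above the scrambled one. Its sign turned without ODD replicate 2 (-0.018) and without EVEN replicate 2 (-0.033). For miR-181b-5p the level averaged 16250 ± 3866 RPM with X1 probes (SD, n = 6), against 13557 RPM in the scrambled capture. The log2 difference came to 0.23 ± 0.32 (limma estimate and SE, 95% interval -0.43 to 0.89) at an adjusted p = 0.692. It was 0.11 without EVEN replicate 2 and 0.15 without ODD replicate 2. With the replicate block it was 0.019, a value that sets only replicate 3 of both sets against the scrambled library. All 6 X1-probe libraries lay above the scrambled one, as they did for 11.2% of the tested microRNAs.

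**Figure D2:**
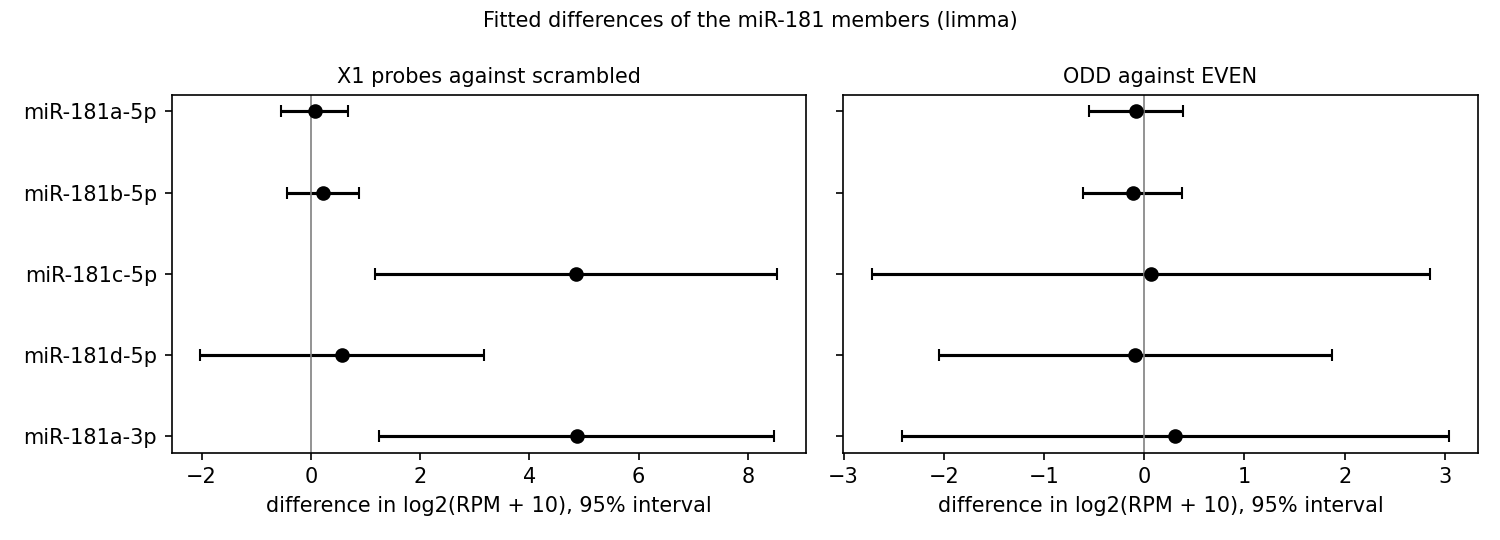
Differences in log2(RPM + 10) of the 5 members for X1 probes against scrambled (left) and ODD against EVEN probes (right), as limma estimates with 95% intervals. The intervals are narrow for miR-181a-5p and miR-181b-5p (-0.55 to 0.69 and -0.43 to 0.89 at left) and wide for the members with few reads, and no adjusted p passed.

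The 3 remaining members were rare. miR-181c-5p, the 5p strand of the chromosome 19 cluster's first hairpin, was read 3, 12 and 1 times in ODD replicates 1 to 3, 6, 1 and 2 times in EVEN replicates 1 to 3, and 0 times with scrambled probes. In RPM these were 277, 338 and 247 with ODD probes, 646, 69.0 and 420 with EVEN probes and 0 with scrambled probes. Both the highest and the lowest X1-probe value came from EVEN probes, and the 2 sets overlapped. The X1-probe mean of 333 ± 193 RPM (SD, n = 6) lay under the 646 RPM that 3 scrambled reads would be worth, so no fold is given. The exact 95% interval of the scrambled value reached 794 RPM, above every X1-probe library of this microRNA, so no difference was detectable at this depth. The log2 difference of 4.85 follows the pseudocount (limma, adjusted p = 0.310).

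miR-181d-5p, from the second hairpin of that cluster, was read 4, 6 and 2 times in ODD replicates 1 to 3, 4, 3 and 2 times in EVEN replicates 1 to 3, and 1 time with scrambled probes. The levels were 370, 169 and 494 RPM with ODD probes, 430, 207 and 420 RPM with EVEN probes, and 215 RPM with scrambled probes. Replicate 2 was the lowest library of each set, where it had been the highest for miR-181a-5p and miR-181b-5p. The ratio of pooled read shares, X1 over scrambled probes, was 1.24 with an exact 95% counting interval of 0.199 to 51.1 (limma, log2 difference 0.57, adjusted p = 0.819).

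miR-181a-3p, the strand opposite miR-181a-5p in mir-181a-1, was read 3, 8 and 2 times in ODD replicates 1 to 3, 1, 5 and 2 times in EVEN replicates 1 to 3, and 0 times with scrambled probes. The levels were 277, 225 and 494 RPM with ODD probes, 108, 345 and 420 RPM with EVEN probes, and 0 RPM with scrambled probes. All 6 X1-probe libraries held it, at a mean of 311 ± 139 RPM (SD, n = 6), again under the worth of 3 scrambled reads. The log2 difference of 4.86 follows the pseudocount (limma, adjusted p = 0.310), and every X1-probe value lay below the scrambled library's upper limit of 794 RPM.

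**Figure D3:**
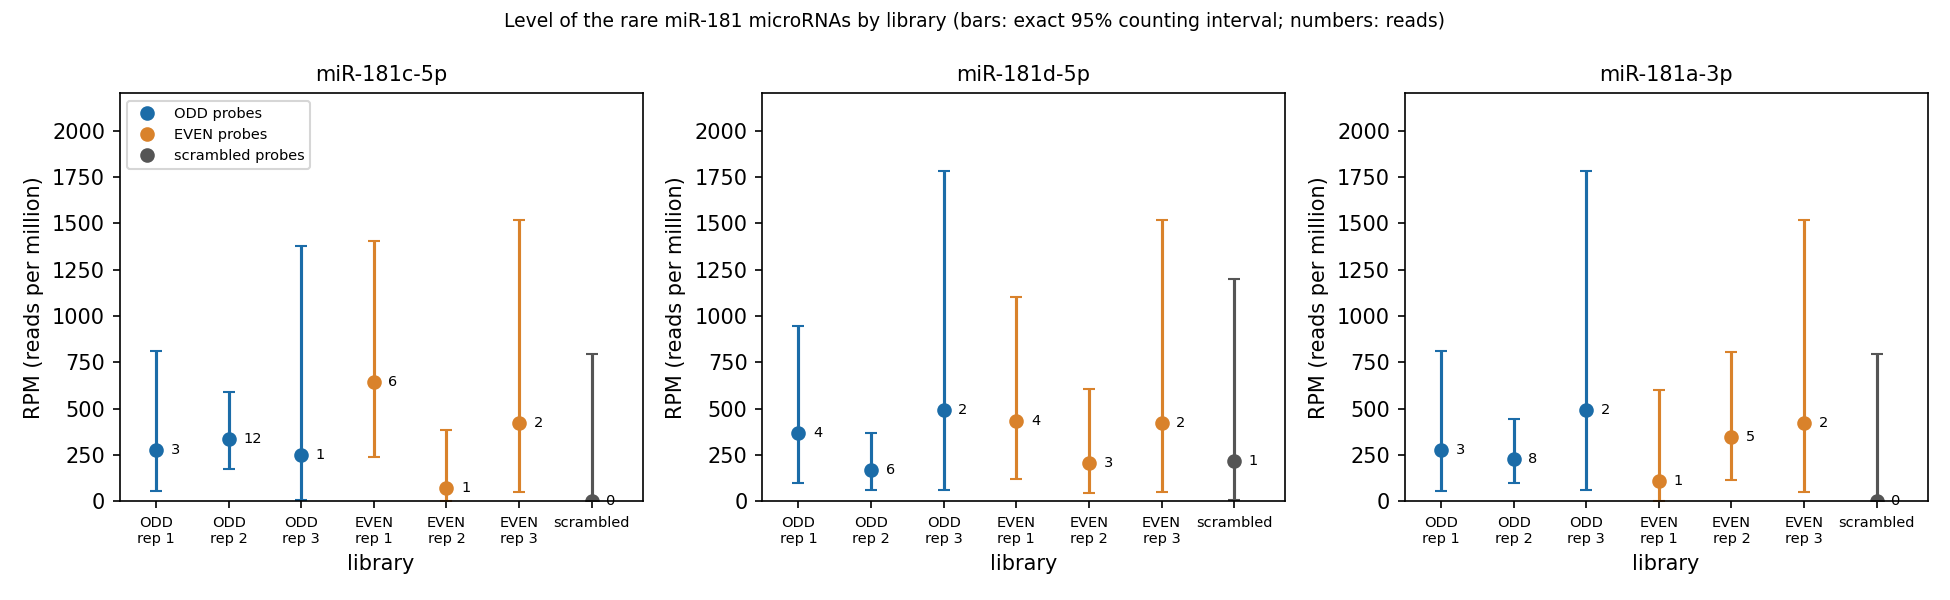
Level of miR-181c-5p, miR-181d-5p and miR-181a-3p in RPM for each library, with exact 95% counting intervals as bars and the reads beside each point. The scrambled library had 0, 1 and 0 reads, and its upper limits (794, 1198 and 794 RPM) lie above every X1-probe value.

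The scrambled library also served as the control of ODD and of EVEN probes taken singly, so these comparisons share it and are not independent. By limma, 0 of 5 members passed with ODD probes and 0 of 5 with EVEN probes, against 0.826% of all tested microRNAs in either, and 2 members had an unadjusted p below 0.05 in each. Over all 242, 18 were higher and 4 lower at that level for ODD probes, and 15 higher and 5 lower for EVEN probes. The log2 difference of miR-181a-5p was 0.029 for ODD probes (limma, adjusted p = 0.974), and 0.11 for EVEN probes (limma, adjusted p = 0.874). For miR-181b-5p it was 0.17 for ODD (limma, adjusted p = 0.821) and 0.29 for EVEN (limma, adjusted p = 0.724). These were 0.016 without ODD replicate 2 and 0.054 without EVEN replicate 2. For miR-181d-5p it was 0.53 for ODD (limma, adjusted p = 0.865) and 0.62 for EVEN (limma, adjusted p = 0.855). The ODD value was 0.21 without ODD replicate 3 and 0.96 without ODD replicate 2, and the EVEN value 0.95 without EVEN replicate 2. For miR-181c-5p and miR-181a-3p, with 0 scrambled reads, the adjusted p was 0.383 for ODD and 0.492 for EVEN by limma.

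Between the probe sets, which target the same transcript, no member passed. By limma, 0 of 5 passed for ODD against EVEN probes, and 0 had an unadjusted p below 0.05, against 0.413% called over all tested microRNAs. In none of the 5 did the ODD libraries lie apart from the EVEN libraries, which happened for 7.02% of the tested microRNAs. miR-181a-5p averaged 33454 ± 7464 RPM in the ODD libraries, against 35667 ± 9565 RPM in the EVEN libraries (SD, n = 3 each), a log2 difference of -0.082 (limma, 95% interval -0.55 to 0.38, adjusted p = 0.981). miR-181b-5p averaged 15475 ± 3064 RPM in the ODD libraries, against 17024 ± 5116 RPM in the EVEN libraries (SD, n = 3 each), a log2 difference of -0.12 (limma, 95% interval -0.61 to 0.38, adjusted p = 0.981). Both signs turned without EVEN replicate 2, to 0.12 for each, and that of miR-181a-5p also without ODD replicate 3, to 0.031. For the rare members the 95% intervals of the log2 difference were much wider, -2.71 to 2.85 for miR-181c-5p, -2.05 to 1.87 for miR-181d-5p and -2.42 to 3.04 for miR-181a-3p.

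The highest library of each probe set was replicate 2 for both abundant members. In miR-181a-5p the exact 95% counting intervals of ODD replicate 2 (39928 to 44129 RPM) and EVEN replicate 2 (42937 to 49849 RPM) lay above those of the other 5 libraries, which ended at 38400 RPM. In miR-181b-5p the interval of EVEN replicate 2 (20535 to 25477 RPM) lay above all others, and that of ODD replicate 2 (17615 to 20484 RPM) overlapped the interval of ODD replicate 3. These intervals hold counting error only, not the spread between captures. Replicate 2 of both sets stood above the other 4 X1-probe libraries in 2 of the 5 members, and in 6.2% of all tested microRNAs. Among microRNAs outside the family with at least 5000 RPM on average, miR-125b-1-3p, miR-221-3p and let-7i-5p had this pattern too. The replicate 2 libraries were also the deepest of their sets, with 35508 and 14492 reads, and the part of depth in this pattern was not tested.

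The labels give both replicate 2 libraries the description number 10, replicate 1 the number 9, and replicate 3 and the scrambled library the number 12, without saying what it marks. With probe set and this number as factors, a test chosen after seeing the data, 0 of 5 members passed the limma F test for the number, against 0% of the 242 tested microRNAs, and 2 of 5 members and 15 of all tested had an unadjusted p below 0.05. The libraries numbered 10 differed from those numbered 9 by 0.61 on the log2 scale for miR-181a-5p (95% interval 0.26 to 0.95) and by 0.57 for miR-181b-5p (0.20 to 0.94). Against those numbered 12 the log2 differences were 0.53 (0.19 to 0.88) and 0.60 (0.24 to 0.97). The adjusted p of the limma F test was 0.370 for miR-181a-5p and 0.401 for miR-181b-5p, so the pattern did not pass over all microRNAs.

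The 2 abundant members moved together. The ratio of miR-181a-5p to miR-181b-5p was 2.22, 2.21 and 2.04 in ODD replicates 1 to 3, 1.91, 2.02 and 2.42 in EVEN replicates 1 to 3, and 2.38 with scrambled probes. Their exact 95% counting intervals overlapped in all 7 libraries, from 1.47 to 2.86 in ODD replicate 3 at the widest among ODD probes. The ratio averaged 2.16 ± 0.105 with ODD probes and 2.12 ± 0.265 with EVEN probes (SD, n = 3 each).

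Over the 7 libraries, 25 other microRNAs averaged at least 5000 RPM. Likeness to miR-181a-5p was measured as the mean absolute difference of log2(RPM + 10), each profile centred on its own mean. miR-181b-5p was the nearest of the 25, at 0.10. The next were miR-125b-1-3p (0.196), miR-146a-5p (0.199) and miR-423-5p (0.20). miR-125b-1-3p, like miR-181a-5p and miR-181b-5p, was highest in replicate 2 of both probe sets, at 8702 RPM for ODD and 10144 RPM for EVEN, and had 4734 RPM with scrambled probes. The profiles share library depth and the RPM total, and genes that are close in this measure need not share anything else.

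**Figure D4:**
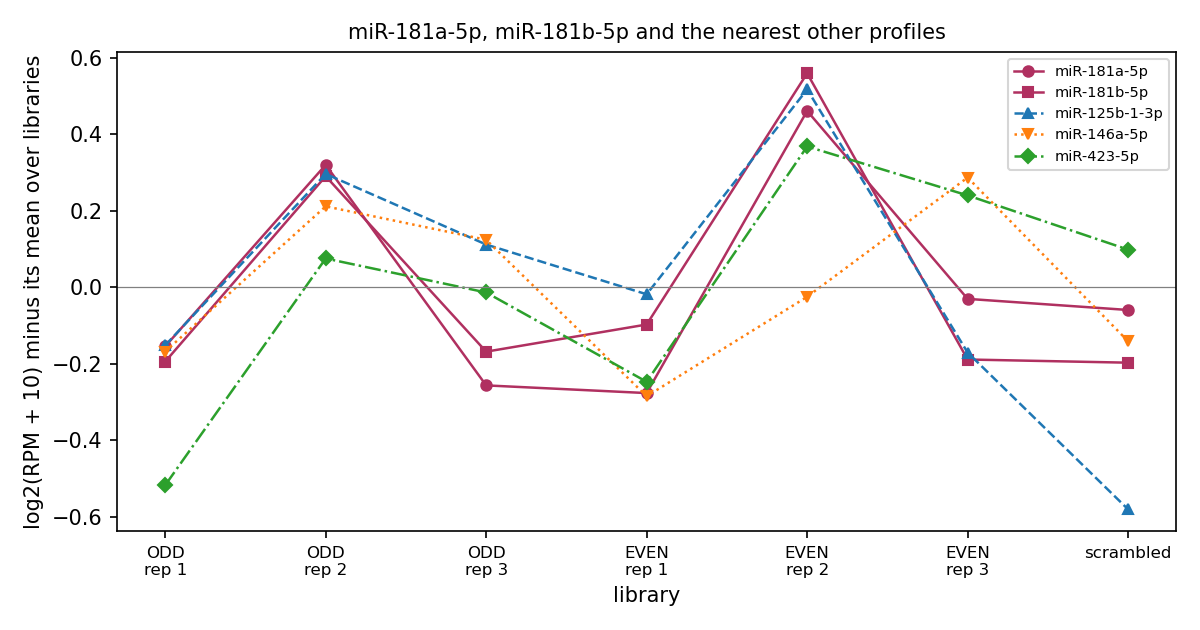
Profiles of miR-181a-5p and miR-181b-5p with the 3 nearest other microRNAs of at least 5000 RPM, as log2(RPM + 10) minus its mean over the 7 libraries. The 2 miR-181 lines nearly coincide (mean absolute difference 0.10) and peak in ODD and EVEN replicate 2.

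The arms of mir-181a-1 were read in very unequal amounts. Over all libraries, 3168 reads came from miR-181a-5p and 21 from miR-181a-3p, a 3p share of 0.659% (exact 95% interval 0.408% to 1.00%). Pooled reads weigh libraries by depth, and ODD replicate 2 gave 1491 of the 3168. By library the share ran from 0.386% to 1.72% with X1 probes (mean 0.925%) and was 0% with scrambled probes. The pooled interval holds counting error only. miR-181a-5p is also cut from mir-181a-2 with an identical sequence, so a share taken in this way understates the 3p arm of mir-181a-1 by itself. Both 3p strands together had 53 reads, which gave a share of 1.65% (1.23% to 2.15%) of the mir-181a reads. Among the 55 hairpins with both arms in the table and at least 20 reads, mir-181a-1 had place 5 in the order of the 5p over the 3p arm as listed, below mir-191, mir-10a and mir-30d and above mir-204, mir-100 and mir-125b-2. The log2 ratio of mir-30d, 7.26, was hardly above that of mir-181a-1, 7.20, and rested on 4 reads of its 3p arm. Against the 3p reads of both mir-181a hairpins, an alternative chosen after seeing the data, the log2 ratio was 5.89 and the place 10. No other hairpin was treated in this way, so this place is not a like-for-like rank.

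By library, the log2 ratio of miR-181a-5p to miR-181a-3p was 6.72, 7.48 and 5.80 in ODD replicates 1 to 3 and 7.88, 7.03 and 6.26 in EVEN replicates 1 to 3. It averaged 6.67 ± 0.839 with ODD and 7.06 ± 0.812 with EVEN probes (SD, n = 3 each), and the difference was within this spread (exact two-sided permutation p = 0.6, where 0.1 is the smallest possible). The pooled reads, 13 of miR-181a-3p with ODD and 8 with EVEN probes, gave a difference of the opposite sign (0.13).

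**Figure D5:**
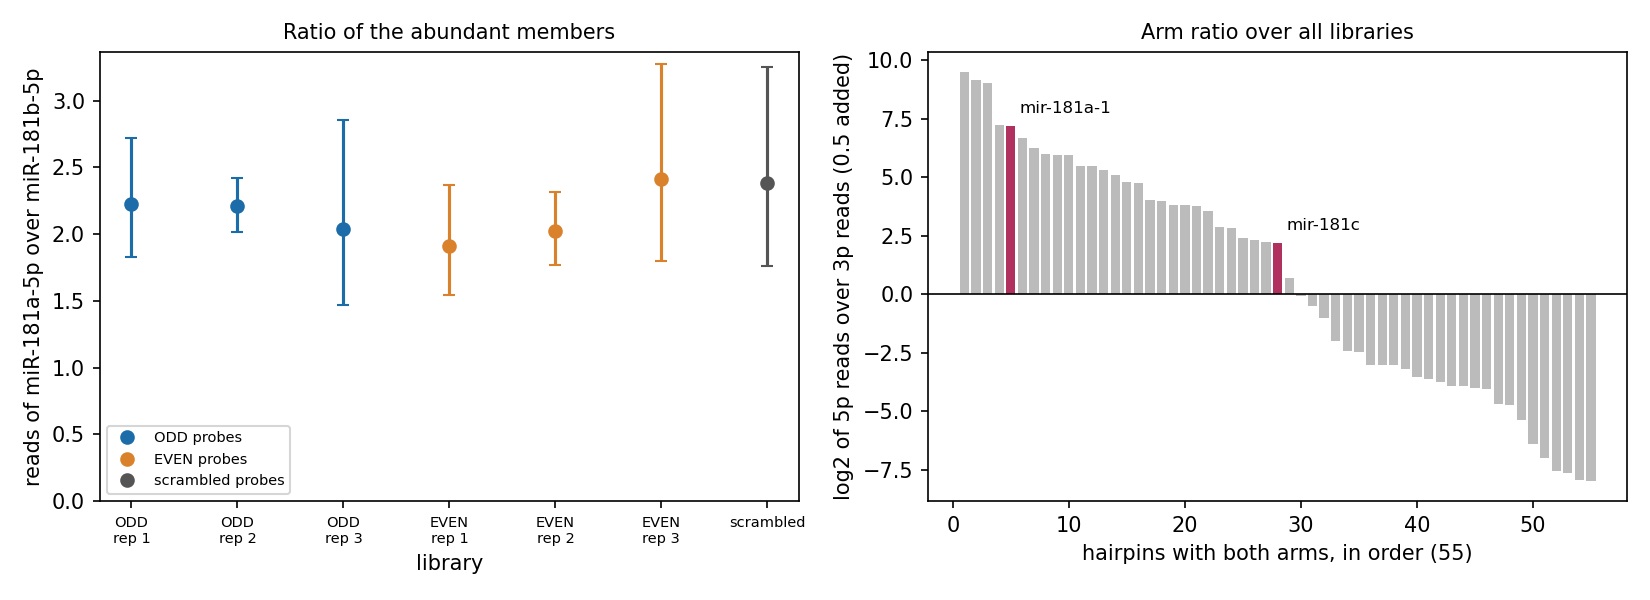
Left, reads of miR-181a-5p over miR-181b-5p in each library with exact 95% counting intervals, between 1.91 and 2.42 throughout. Right, the log2 ratio of 5p to 3p reads over all libraries for 55 hairpins in order. As listed, mir-181a-1 is at place 5 and mir-181c at place 28. With the 3p reads of both mir-181a hairpins, and no other hairpin changed, mir-181a would be at place 10.

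The table also held the opposite arms miR-181a-2-3p and miR-181c-3p. miR-181a-2-3p, which had rank 102, above the 3 rare members, and comes from the chromosome 9 copy of mir-181a, was read 3, 15 and 1 times in ODD replicates 1 to 3, 2, 4 and 3 times in EVEN replicates 1 to 3, and 4 times with scrambled probes. All 6 X1-probe libraries, at 215 to 629 RPM, lay below the scrambled value of 861 RPM, as they did for 22.7% of the tested microRNAs. The ratio of pooled read shares, X1 over scrambled probes, was 0.412 with an exact 95% counting interval of 0.144 to 1.62 (limma, log2 difference -1.40, adjusted p = 0.673). miR-181a-3p made up 21 of the 49 reads of both 3p strands with X1 probes, 42.9% (exact 95% interval 28.8% to 57.8%), and 0 of 4 with scrambled probes, where the interval reaches 60.2%. miR-181c-3p had 5 reads with X1 probes and 0 with scrambled probes and did not pass the filter.

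Other families with several members of 1 seed served as a comparison. The summed miR-181 5p arms varied by 21.9% (coefficient of variation, n = 6) over the X1-probe libraries, the let-7 family by 13.3% and the miR-30 family by 14.6%. The leading member held 67.0% of the miR-181 5p sum on average, against 52.2% for let-7a-5p in its family and 50.6% for miR-30a-5p in its own. These are descriptions of the libraries, and the differences were not tested. Of the 9 let-7 and 5 miR-30 members, 0 and 0 passed against scrambled probes by limma, with 3 and 0 at an unadjusted p below 0.05, where 2 of all 242 passed and 17 were higher and 4 lower unadjusted.

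A list of 24 microRNAs often described as acting on the RAS, RAF and ERK pathway or on melanoma growth was set beside the family, with 18 tested. For X1 against scrambled probes 0 were higher and 0 lower by limma, with 4 higher and 1 lower at an unadjusted p below 0.05, beside 17 and 4 of all 242. For ODD against EVEN probes 0 were higher and 1 lower, let-7f-5p, which was the 1 call among all 242 (0.413%). The median log2 difference of the list against scrambled probes was 0.12, where that of all tested microRNAs was 0.096.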

How the data were processed

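The authors deposited RPM values, reads scaled to 1000000 per library, for 498 rows of hairpin and mature microRNA. The tools named, per the submitters' processing notes, are CASAVA (version 1.8) and cutadapt (version 1.2.1). Aligner, counting rule, annotation and build were not given in the sources used here. Each deposited RPM value was a whole multiple of 1 read (tolerance 1e-06 reads), which gave the read numbers. Per the file headers, columns were matched to libraries by the sample descriptions.

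For names with several rows the row with the highest RPM sum was kept (480 names). limma 3.58.1 in R 4.3.3 took log2(RPM + 10) with ODD, EVEN and scrambled as group means, and eBayes with a trend, and p-values were Benjamini-Hochberg adjusted over the 242 names with at least 10 RPM in at least 3 libraries. The single scrambled library was assumed to vary like the others (4 residual degrees of freedom, prior 28.6). Captures are independent per the series' design text, but nothing says that cultures were, so p-values measure the spread between these captures. Counting intervals are exact Clopper-Pearson 95% intervals from Python's scipy 1.17.1 and leave out all error but that of counting, because PCR copies could not be told from separate molecules. The members are those given by name; the other miR-181 arms, the nearest profiles, the neighbours in arm ratio, the comparison families and the pathway and marker lists followed a fixed rule. Members and lists were chosen with earlier results of these data known. Alternatives covered the pseudocount, filter, scaling, RPM total, eBayes trend, replicate block, each replicate left out, and voom on recovered reads.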

Additional observations from a re-analysis of the deposited data

Results flagged for a closer look

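miR-181c-3p in EVEN replicate 2 stood apart from the other X1-probe libraries, with 276 RPM where the other 5 had 0 to 28.2 RPM. It had 4 reads there (exact 95% interval 75.2 to 707 RPM) and 1 read in ODD replicate 2. miR-181c-5p from the same hairpin had 1 read in EVEN replicate 2. A gap of this kind was looked for in 10 measures over the 6 X1-probe libraries and found in 1, and chance gives it to about 1 in 20. That rate holds for normally distributed values, not for read counts that are mostly 0, so nothing is read from it here.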

How the results depend on the processing

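No member passed in any of the 4 comparisons under any of the 15 alternatives, where the smallest adjusted p was 0.0797. None was called by description number without the scrambled library. That library has its own mean in the fit, so leaving it out changes hardly anything and is no separate check. Calls over all microRNAs ran from 0 to 12 for X1 probes against scrambled (2 as reported; 0 with the highest pseudocount and with the replicate block, 12 with no filter), from 0 to 11 for ODD and from 0 to 12 for EVEN against scrambled, and from 0 to 3 for ODD against EVEN. Of 300 recomputed member differences, 23 turned in sign. Over all tested microRNAs, ODD and EVEN deviations were hardly correlated within a replicate number (-0.044, 0.072 and 0.019 for numbers 1 to 3). MicroRNAs of a few reads weigh as much in this as abundant ones, so it could not show whether the captures were paired. The scrambled library shares its description number only with replicate 3 of both sets. With the replicate block its difference from X1 probes therefore sets replicate 3 alone against it. In that fit the log2 difference of miR-181a-5p against scrambled was -0.084 for X1 probes. It was -0.12 for ODD and -0.043 for EVEN probes, and that of miR-181b-5p was -0.039 for ODD probes. These single-set values also draw on the other replicates, through the mean difference between the sets. In replicate 3 itself, miR-181a-5p with EVEN probes (32935 RPM) lay above scrambled (32279 RPM). So did miR-181b-5p with ODD probes (13831 against 13557 RPM). With voom, chosen after seeing the data, the log2 difference of miR-181d-5p against scrambled was -0.045 for X1 and -0.26 for ODD probes, and that of miR-181a-3p for ODD against EVEN -0.093. That of miR-181c-5p for ODD against EVEN was -0.015 and -0.10 with the 2 pseudocounts above 10. The cause of the turns with voom and with the pseudocounts was not tested. Leaving out each replicate in turn, miR-181a-5p against scrambled ran from -0.033 to 0.15 for X1, -0.15 to 0.14 for ODD (lowest without ODD replicate 2) and -0.094 to 0.27 for EVEN probes (lowest without EVEN replicate 2). The ranges of miR-181b-5p were 0.11 to 0.30, 0.016 to 0.26 and 0.054 to 0.43, and those of miR-181d-5p 0.41 to 0.79, 0.21 to 0.96 and 0.44 to 0.95, for X1, ODD and EVEN probes. For ODD against EVEN the ranges were -0.26 to 0.12 for miR-181a-5p, -0.27 to 0.12 for miR-181b-5p, -0.85 to 0.68 for miR-181c-5p, -0.42 to 0.34 for miR-181d-5p and -0.27 to 0.67 for miR-181a-3p. The difference in the log2 ratio of miR-181a-5p to miR-181a-3p ran from -0.80 to 0.041, above 0 without ODD replicate 3 or EVEN replicate 1, and was 0.13 from pooled reads. Scaled to 1 row per mature name, the family's sum was 68162 RPM for ODD, 73780 RPM for EVEN and 61512 RPM for scrambled probes, higher in all because the total then holds fewer rows. The planned count models on recovered reads were not run, and voom took their place. With 4647 scrambled reads, members under about 646 RPM could not be compared.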

Other observations

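The table listed miR-181a-5p once, at mir-181a-1, although RefSeq gives the same sequence at both mir-181a hairpins. miR-181b-5p was listed at both of its hairpins, with 1455 reads at mir-181b-1 and 1473 at mir-181b-2 over the 7 libraries. In the scrambled library both rows held 63 reads, and in ODD replicate 2 they held 666 and 675. The 3p strands differ between the mir-181a hairpins and so name their locus: of 53 such reads over all libraries, 21 were from mir-181a-1 and 32 from mir-181a-2.

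mir-181c had 25 reads of miR-181c-5p and 5 of miR-181c-3p, a 3p share of 16.7% (exact 95% interval 5.64% to 34.7%). Of the 5 reads of miR-181c-3p, 4 were in EVEN replicate 2, and without that library the share was 4% (1 of 25 reads, 0.101% to 20.4%). For mir-181a, with the 3p reads of both hairpins, it was 1.65% (1.23% to 2.15%) over all 7 libraries. The mir-181c interval without EVEN replicate 2 overlaps this one, and the mir-181a share without that library was not computed.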
